A study of Mus musculus with 6 samples.

Results

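The genes described here are the nuclear-encoded subunits of the 5 complexes of oxidative phosphorylation, in mouse bone marrow-derived macrophages given oxidised low-density lipoprotein (oxLDL). They were taken by gene symbol: Nduf subunit names, Sdha to Sdhd, names that begin with Uqcr, Cyc1, Cox4 to Cox8 subunit names and names that begin with Atp5, without assembly factors and pseudogenes. The rule found 82 genes among the 16871 genes listed in any of the 6 libraries. There were 35 genes of complex I, 4 of complex II, 9 of complex III, 17 of complex IV and 17 of complex V. Ndufa4 and Ndufa4l2 carry complex I names but are described with complex IV, where the Ndufa4 protein is now placed. The rule used no measured value. Another 6 protein-coding genes with matching names, Cox7b2, Cox8b, Cox8c, Ndufb1, Ndufb4b and Ndufb4c, were listed in no library and were not analysed here, and neither were the 13 subunits encoded by mitochondrial DNA.

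Total RNA was sequenced from 3 DKO and 3 LKO libraries. DKO cells lacked both the mitochondrial aldehyde dehydrogenase ALDH2 and the LDL receptor, and LKO cells, the control, lacked the LDL receptor alone. Both came from C57BL/6 mice aged 8 weeks, and both were cultured for 7 days and then given oxLDL, so no untreated cells and no cells with the LDL receptor were compared. The labels used here give neither the oxLDL dose and time, nor the number of animals, nor whether the samples came from separate animals, so a p-value here sets a difference against the spread of these libraries alone, and that spread may be technical. Aldh2, the deleted gene, had 7.00, 7.06 and 7.34 FPKM (the authors' unit, reads scaled to transcript length and library depth) in the DKO libraries, against 248.64, 238.56 and 235.61 FPKM in the LKO libraries. All DKO libraries were below all LKO libraries, with a log2 fold change of -5.01 ± 0.06 (SE), as the labels require. With 3 libraries against 3, a two-sided exact permutation test cannot go below p = 0.1, and it gave that value. Libraries held 10760625 to 10987584 expected counts each, and the 82 genes took 0.586% to 0.627% of them.

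Oxidative phosphorylation is the main oxygen-dependent route to ATP. Complexes I and II pass electrons from NADH and succinate to ubiquinone, complex III passes them to cytochrome c, and complex IV passes them to oxygen. Complexes I, III and IV pump protons across the inner mitochondrial membrane, and complex V, the ATP synthase, lets them return and makes ATP. In macrophages the balance between this route and glycolysis is known to shift with activation, and ALDH2 works in the same compartment, the mitochondrial matrix, where it oxidises aldehydes that arise from lipid peroxidation. RNA levels say nothing of how much complex is assembled or of respiration.

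Most of the subunits were abundant. Of the 82 genes, 77 had a mean above 10 FPKM over the 6 libraries and 30 had a mean above 100 FPKM, and these 77 are also the ones that passed the filter on low counts. The other 5, Cox7a1, Cox6a2, Cox6b2, Cox4i2 and Ndufa4l2, had means of 0.127 to 1.14 FPKM and could not be tested. No gene lay between these groups. The median mean level was 69.3 FPKM over the 82 genes, against 9.24 FPKM over all 11809 genes tested. By complex, the median mean level was 49.0 FPKM in complex I, 79.8 FPKM in complex II, 59.7 FPKM in complex III, 155 FPKM in complex IV and 129 FPKM in complex V.

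**Figure D1:**
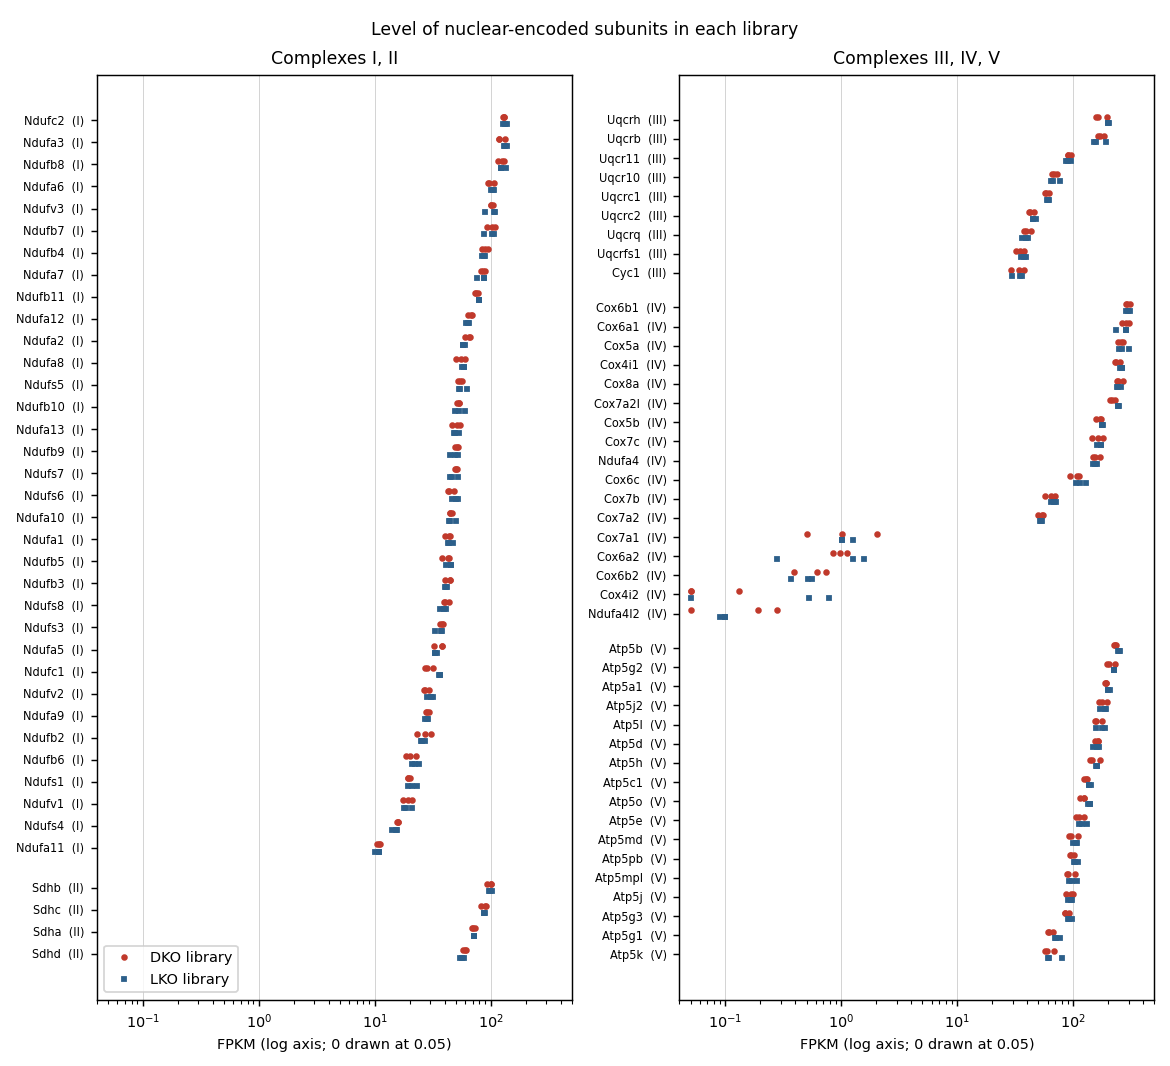
FPKM of 81 of the 82 subunit genes (log axis, with 0 drawn at 0.05) in the 3 DKO libraries (red circles) and the 3 LKO libraries (blue squares), grouped by complex and sorted by level. In 76 genes the points of both groups lie close together above 10 FPKM, and 5 tissue-restricted isoforms of complex IV lie far below, at no more than 2.01 FPKM in any library.

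Levels within a complex spanned a wide range. In complex I the highest gene was Ndufc2, an accessory subunit of the membrane arm, with 129 ± 1.45 FPKM in DKO and 133 ± 5.55 FPKM in LKO libraries (SD, n = 3 each, here and below). The lowest was Ndufa11, another membrane-arm accessory subunit, with 10.8 ± 0.331 FPKM in DKO and 10.6 ± 0.525 FPKM in LKO libraries. The 7 conserved core subunits of complex I, which carry the flavin and the iron-sulphur clusters, had a median level of 36.8 FPKM, and the 28 accessory subunits one of 51.9 FPKM. The core subunits that receive the electrons were near the low end: Ndufv1, which binds NADH, had 19.2 ± 1.58 FPKM in DKO and 19.2 ± 1.47 FPKM in LKO libraries. Ndufs1, which holds iron-sulphur clusters, had 19.5 ± 0.566 FPKM in DKO and 21.1 ± 1.71 FPKM in LKO libraries.

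In complex II, Sdhb, the iron-sulphur subunit, was highest, with 98.6 ± 4.10 FPKM in DKO and 99.2 ± 2.99 FPKM in LKO libraries. Sdhd, a membrane anchor, was lowest there, with 59.4 ± 1.68 FPKM in DKO and 56.8 ± 1.99 FPKM in LKO libraries. In complex III the redox subunits were the lowest 2 of the 9 genes. Cyc1, cytochrome c1, had 33.8 ± 4.31 FPKM in DKO and 33.5 ± 3.60 FPKM in LKO libraries, and Uqcrfs1, the Rieske iron-sulphur protein, had 35.0 ± 2.84 FPKM in DKO and 37.6 ± 1.75 FPKM in LKO libraries. The highest gene of complex III was Uqcrh, the hinge protein that binds beside cytochrome c1, described further on. In complex IV, Cox6b1, which faces the intermembrane space, was the highest of all 82 genes, with 293 ± 12.9 FPKM in DKO and 295 ± 12.8 FPKM in LKO libraries. In complex V the catalytic beta subunit Atp5b was highest, and Atp5k, a small membrane subunit, was lowest, with 61.2 ± 6.29 FPKM in DKO and 67.3 ± 10.5 FPKM in LKO libraries. The 5 subunits of the F1 head had a median level of 159 FPKM, and the other 12 genes of complex V one of 101 FPKM.

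Complex IV has tissue-restricted copies of several subunits, and these were nearly silent in both genotypes. Cox7a1, the heart and muscle copy, took 3.58%, 0.990% and 1.82% of the summed FPKM of Cox7a1 and Cox7a2 in the DKO libraries, against 1.83%, 2.37% and 1.93% in the LKO libraries. Cox6a2, also a heart and muscle copy, took 0.278%, 0.428% and 0.346% beside Cox6a1 in the DKO libraries, against 0.538%, 0.0984% and 0.545% in the LKO libraries. The groups overlapped in both, and DKO replicate 1 held the highest share of Cox7a1.
Cox6b2, the testis copy, took 0.127% to 0.257% beside Cox6b1 in the DKO libraries and 0.131% to 0.182% in the LKO libraries. Cox4i2, the lung copy, was at 0 in DKO replicates 1 and 3 and in LKO replicate 3, and its share beside Cox4i1 was at most 0.0562% in a DKO library and at most 0.297% in an LKO library. Ndufa4l2, a hypoxia-responsive relative of Ndufa4, took at most 0.189% beside Ndufa4 in a DKO library and at most 0.0681% in an LKO library. The mature c subunit of the ATP synthase ring is encoded by 3 genes, and all 3 were used: Atp5g2 gave 58.1% ± 0.935 of their summed FPKM in DKO and 57.6% ± 0.615 in LKO libraries, Atp5g3 24.3% ± 0.525 in DKO and 23.9% ± 0.822 in LKO, and Atp5g1 17.6% ± 0.427 in DKO and 18.5% ± 0.805 in LKO. Over the 8 shares compared, the exact two-sided permutation test gave p from 0.2 to 1, with Benjamini-Hochberg adjusted values from 0.914 to 1. A p under 0.1 was not possible with 3 against 3.

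Respiratory subunit genes are known for promoters with sites for the factors NRF-1, GABP (of the ETS family), YY1 and the ERR receptors. RefSeq promoter windows (assembly GRCm38.p6, 250 bases before to 50 bases after each gene start) were found for 66 of the 82 genes, in 71 windows. The letters GCGCATGC (NRF-1), searched on both strands as were all motifs here, were in 10 of the 71 windows (14.1%), against 5.20% of the 11991 windows of all tested genes and 2.71% of the 32851 windows of all genes. These 10 windows are shown so that the bases around the match can be compared; the next base is G in 8 of the 10. The searched letters are in capitals, with 10 bases of context on either side, 5′ to 3′ on the strand named.
Ndufa8 (chr2:36049329-36049356, plus strand): ggtaccatctGCGCATGCgtctccagcg
Sdhb (chr4:140961207-140961234, minus strand): ggcccgtaggGCGCATGCccactgggct
Atp5k (chr5:108434432-108434459, minus strand): tttcactgcgGCGCATGCgcctttctgg
Cox6a1 (chr5:115349103-115349130, minus strand): caggaacgggGCGCATGCgcgctctcgc
Atp5l (chr9:44920965-44920992, plus strand): tgggggaaatGCGCATGCgttattggtt
Uqcrc1 (chr9:108936668-108936695, plus strand): actccgctctGCGCATGCgcagcgcggc
Uqcr11 (chr10:80406808-80406835, plus strand): cagacgtataGCGCATGCgtgaaggcga
Ndufa6 (chr15:82354357-82354384, plus strand): gctctgcaatGCGCATGCtctaccgcgg
Atp5g2 (chr15:102671072-102671099, minus strand): ggctccggccGCGCATGCgcagagcctt
Ndufa11 (chr17:56717692-56717719, plus strand): cctgcactgcGCGCATGCgcgcacgcct
All 5 complexes are represented among them, and none of the 10 genes passed the test between genotypes given further on.

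The letters AAGATGGC (YY1) were also in 10 of the 71 windows (14.1%), against 4.69% of the windows of all tested genes and 2.75% of those of all genes. Their position was uneven: 8 of the 10 lay on the gene's own strand within the 50 bases after the gene start, against 252 of the 562 matches (44.8%) in the windows of all tested genes. The 4 examples below, from complexes I and V, show this shared place just after the start. They were picked among matches followed by a G, which was the next base in 7 of the 10.
Ndufc1 (chr3:51408916-51408943, minus strand): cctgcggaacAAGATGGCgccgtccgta
Ndufs7 (chr10:80249463-80249490, plus strand): ggccgaggccAAGATGGCggcgctggcg
Ndufa9 (chr6:126849098-126849125, minus strand): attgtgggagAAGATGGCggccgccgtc
Atp5j2 (chr5:145191501-145191528, minus strand): ccaggacttcAAGATGGCgtcactcggt
The letters CCGGAAGT (ETS family, GABP) were in 5 windows (7.04%), against 8.38% of the windows of all tested genes and 3.89% of those of all genes. The letters TCAAGGTCA (ERR) were in 2 windows (2.82%), those of Atp5g3 and Sdhd, against 0.259% of the windows of all tested genes and 0.423% of those of all genes. Only Uqcr11 held 2 motifs, NRF-1 and ETS, and they did not overlap. These are matches of letters, not measured binding.

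One DKO library stood apart for these genes. DKO replicate 1 held the highest of the 3 DKO values for 52 of the 77 subunits (67.5%), while it did so for 33.9% of all tested genes. The median log2 deviation of the subunits from the LKO mean was 0.04, -0.06 and -0.05 in DKO replicates 1, 2 and 3, and -0.01, 0.01 and -0.01 in LKO replicates 1, 2 and 3. Over all 90 tested genes of up to 500 bases, 13 of them subunits, it was 0.02, -0.07 and -0.10 in DKO replicates 1, 2 and 3, so replicate 1 was again above zero and the other 2 below it, whereas over the 5481 genes longer than 3000 bases it was -0.02, 0.02 and 0.01. The subunits have short transcripts, with a median of 700 bases, against 2653 bases over all listed genes.

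**Figure D2:**
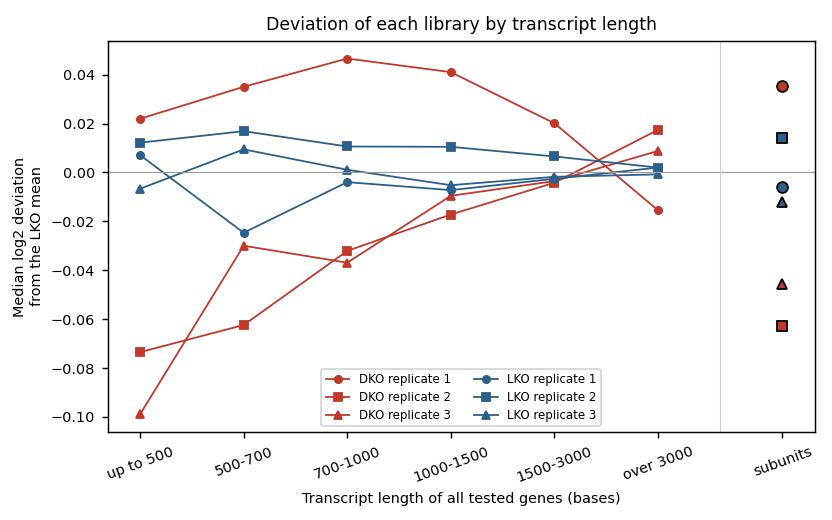
Median log2 deviation from the LKO mean in each library (lines: DKO red, LKO blue) for all tested genes in 6 classes of transcript length, with the 77 subunits at the right. DKO replicates 2 and 3 lie below zero for short transcripts and DKO replicate 1 above it, and the subunits, which are themselves part of the 5 classes up to 3000 bases, lie on the same sides of zero.

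Markers of macrophages and of 3 other kinds of cell that a marrow culture can hold, neutrophils, B cells and stromal cells, held genes that passed the test between genotypes. Of 12 tested macrophage markers 8 rose in DKO and 1, Adgre1, fell, with summed levels of 10801 to 12026 FPKM in DKO and 9528 to 10266 FPKM in LKO libraries. Most of these sums came from 1 gene that rose, Lyz2, with 7616 ± 580 FPKM in DKO and 6105 ± 337 FPKM in LKO libraries. Adgre1, the next highest, had 1755 ± 31.8 FPKM in DKO and 1938 ± 95.8 FPKM in LKO libraries. The macrophage sums therefore mainly follow Lyz2 and do not show a rise of the list as a whole. Of 15 tested neutrophil markers 9 fell, with sums of 384 to 427 FPKM in DKO and 601 to 662 FPKM in LKO libraries. Of 5 tested B cell markers 5 fell, with sums of 78.7 to 86.4 FPKM in DKO and 103 to 114 FPKM in LKO libraries, while the B cell precursor genes Vpreb1 and Igll1 were at 0 in all 6 libraries. Of 10 tested stromal markers 6 rose, with sums of 71.0 to 95.4 FPKM in DKO and 44.4 to 50.01 FPKM in LKO libraries. For comparison, the test between genotypes called 7.42% of all tested genes higher in DKO and 6.88% lower. Markers of T or NK cells, erythroid cells and dendritic cells each summed to at most 2.95 FPKM in any library, and mast cell and basophil markers to at most 0.40 FPKM. Macrophage markers, those of the labelled cell type, had the highest sums of the 8 lists in every library. The part of the other cells in the differences between genotypes was not tested.

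Between genotypes, the subunits as a group stayed within narrow limits. Of the 77 tested, 3 fell in DKO relative to LKO (3.90%) and 0 rose, by the edgeR quasi-likelihood test at a Benjamini-Hochberg adjusted p under 0.05. Over all 11809 genes the same test called 14.3% in either direction, 7.42% higher in DKO and 6.88% lower in DKO, so the share of subunits called lower was below that background. At an unadjusted p under 0.05 there were 8 lower and 1 higher, Ndufa2, against a background of 12.7% of all tested genes lower and 13.1% higher, and no alternative tool or setting called any subunit higher. The 3 that fell were Atp5o of complex V, Cox7a2l of complex IV and Uqcrh of complex III. The median log2 fold change was -0.03 over the 77 subunits and 0.00 over all tested genes, and single subunits ranged from -0.31 (Ndufc1) to 0.14 (Ndufa2), with 45 negative and 32 positive.

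The count of calls moved with single libraries. Without DKO replicate 1, the library set apart for these genes, 5 subunits were lower, Atp5g1, Atp5o, Cox4i1, Cox7a2l and Uqcrh, with a median of -0.05. Without DKO replicate 2 or DKO replicate 3, 1 was lower, and without LKO replicate 2, 0 were. With a trend on transcript length removed from each library, 4 subunits were lower, Atp5b, Atp5o, Cox7a2l and Uqcrh, 0 were higher, and the median was -0.02.

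The intervals bound how large an unseen change could be against the spread of these libraries, which may be technical. They set no bound on a difference between animals. The 95% interval of the log2 fold change lay within 0.5 of zero, or 1.41-fold, for 76 of the 77 subunits (98.7%), against 73.8% of all tested genes. It lay within 0.25 of zero, or 1.19-fold, for 65 subunits (84.4%), against 38.9% of all tested genes. The exception to the wider bound was Ndufc1, with an interval of -0.54 to -0.08. The subunits also had higher levels, with a median of 69.3 FPKM against 9.24 FPKM over all tested genes. Their median SE was smaller, 0.066 against 0.081. The part of level in the narrower intervals was not tested. In bulk RNA, fewer cells of a type and less RNA per cell cannot be told apart, and this holds for every difference given here.

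**Figure D3:**
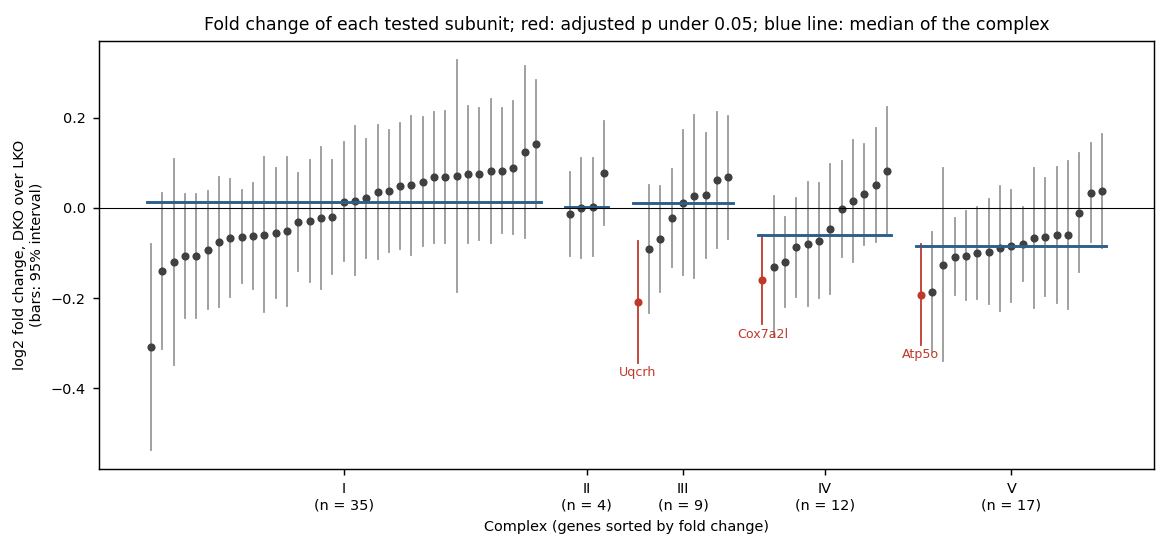
Log2 fold change of DKO over LKO for each of the 77 tested subunits (points) with its 95% interval (bars), grouped by complex and sorted within it, red where the edgeR adjusted p was under 0.05, with the median of each complex as a blue line. The 3 red points, Uqcrh, Cox7a2l and Atp5o, lie below zero, and the median lines of complexes IV and V lie at -0.06 and -0.08.

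Separation of the libraries was counted as well. All 3 DKO libraries were below all 3 LKO libraries in FPKM for 13 of the 77 subunits (16.9%), close to the background of 16.0% of all tested genes. All DKO libraries were above all LKO libraries for 0 subunits, against a background of 13.6%. The groups overlapped for the other 64. The 13 were spread unevenly, with 6 of 17 in complex V, 3 of 12 in complex IV, 1 of 9 in complex III, 3 of 35 in complex I and 0 of 4 in complex II.

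Complex I, the entry point for NADH, showed no called difference. Of its 35 genes 0 passed by the edgeR test, with 1 lower and 1 higher at an unadjusted p under 0.05. DESeq2 also called 0, and limma on log2(FPKM + 1) called 1, Ndufc1. The median log2 fold change was 0.01, with 17 negative and 18 positive. The 7 core subunits lay between -0.11 (Ndufv2) and 0.09 (Ndufs7), and their 7 intervals all lay within 0.25 of zero.

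Ndufc1, a small accessory subunit of the membrane arm, was the gene of complex I farthest from zero and is named because of its value. It had 28.19, 31.90 and 26.89 FPKM in the DKO libraries, against 36.21, 35.55 and 36.77 FPKM in the LKO libraries. The groups did not overlap, and the lowest LKO library stood above the highest DKO library, replicate 2. The log2 fold change was -0.31 ± 0.11 (SE), with an edgeR adjusted p of 0.0668, so it missed the threshold. It passed in 8 of 19 alternatives, with adjusted p between 0.00815 and 0.293 over all of them. Ndufa2, an accessory subunit of the matrix arm, was the highest in fold change, with 63.8 ± 3.76 FPKM in DKO and 58.2 ± 1.51 FPKM in LKO libraries, a log2 fold change of 0.14 and an edgeR adjusted p of 0.192. Ndufb11, an accessory subunit encoded on the X chromosome, also had all DKO libraries below all LKO libraries, with a log2 fold change of -0.06.

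Complex II, which is also an enzyme of the citric acid cycle, had closely similar levels in both genotypes. Of its 4 genes 0 passed by edgeR, by DESeq2 or by limma, and 0 reached an unadjusted p under 0.05 by edgeR. Sdha, the flavoprotein that oxidises succinate, had 70.8 ± 1.94 FPKM in DKO and 72.0 ± 0.464 FPKM in LKO libraries. Log2 fold changes lay between -0.01 (Sdha) and 0.08 (Sdhd), and all 4 intervals lay within 0.25 of zero.

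In complex III, 1 of 9 genes fell and 8 did not pass. Uqcrh had 196.71, 164.53 and 158.31 FPKM in the DKO libraries, against 204.65, 200.71 and 199.34 FPKM in the LKO libraries. DKO replicates 2 and 3 were well below every LKO library, while DKO replicate 1 stood just under the lowest LKO library. The log2 fold change was -0.21 ± 0.06 (SE), with an edgeR adjusted p of 0.0343. This call was held in 7 of 19 alternatives: DESeq2 gave an adjusted p of 0.0614, limma missed the threshold with every pseudocount and filter tried, and it was lost without any 1 of the libraries DKO 2, DKO 3, LKO 1, LKO 2 or LKO 3 (adjusted p 0.0609 to 0.199). The call was kept without DKO replicate 1. Its redox neighbours did not pass: Uqcrfs1 had a log2 fold change of -0.09 and Cyc1 one of 0.03, with edgeR adjusted p of 0.444 and 0.905.

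Uqcrh was the only one of the 3 called genes whose promoter window held any of the 4 motifs. The 250 bases before its start (chr4:116075071-116075320, minus strand) are shown with the ETS letters, here in the opposite orientation, in capitals close to the start at the right end.
Uqcrh: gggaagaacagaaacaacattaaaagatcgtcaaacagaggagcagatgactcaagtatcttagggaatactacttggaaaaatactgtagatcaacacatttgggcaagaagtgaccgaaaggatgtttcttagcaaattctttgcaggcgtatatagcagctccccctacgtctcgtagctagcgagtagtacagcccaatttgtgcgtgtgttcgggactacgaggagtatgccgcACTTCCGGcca
The windows of Cox7a2l and Atp5o held none of the 4 motifs as spelled here.

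In complex IV, 1 of 12 tested genes fell and 11 did not pass. Cox7a2l, a relative of Cox7a2 that helps join complexes III and IV into supercomplexes and of which C57BL/6 mice are known to carry a shortened allele, had 230.70, 206.48 and 213.85 FPKM in the DKO libraries, against 250, 241.28 and 241.50 FPKM in the LKO libraries. All DKO libraries were below all LKO libraries, again with DKO replicate 1 nearest to them. The log2 fold change was -0.16 ± 0.05 (SE), with an edgeR adjusted p of 0.0273. The call was held in 12 of 19 alternatives; limma on log2(FPKM + 1) gave an adjusted p of 0.0511, and it was lost without DKO 2 (0.173), without DKO 3 (0.0918) or without LKO 2 (0.0638). Cox7a2 itself, the ubiquitous subunit of the same family, had 52.9 ± 2.53 FPKM in DKO and 52.8 ± 1.22 FPKM in LKO libraries.

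The other genes of complex IV lay on both sides of zero. Cox4i1, the ubiquitous form of a regulatory subunit, had 250.84, 231.00 and 230.21 FPKM in the DKO libraries, against 261.92, 254.00 and 263.86 FPKM in the LKO libraries. These groups did not overlap either, and the edgeR adjusted p was 0.105 at a log2 fold change of -0.12. Cox5b, a zinc-binding subunit, was the third gene of the complex with no overlap, at -0.09. Cox6a1, Ndufa4, Cox8a and Cox7a2 had positive values, up to 0.08 for Cox6a1, and Cox6b1 lay at 0.00 with an edgeR adjusted p of 0.985.

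Complex V leaned to one side more than the others. Of its 17 genes 1, Atp5o, fell and 16 did not pass, but 15 had a negative log2 fold change and 2 a positive one, Atp5d at 0.03 and Atp5j at 0.04. The median was -0.08. By library, the median log2 deviation of these genes from the LKO mean was 0.03, -0.13 and -0.13 in DKO replicates 1, 2 and 3. By this median DKO replicates 2 and 3 lay below zero and replicate 1 above it. In 6 of the 17 genes, however, replicate 1 was also below every LKO library, as were replicates 2 and 3. Over all tested genes 5896 log2 fold changes were negative and 5913 positive. At an unadjusted p under 0.05 there were 4 of the 17, all lower: Atp5o, Atp5g1, Atp5b and Atp5c1. The share of all tested genes lower at that p was 12.7%. Whether complex V differed in this from the other complexes was not tested.

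Atp5o, the subunit of the peripheral stalk that confers oligomycin sensitivity, had 123.40, 113.89 and 122.39 FPKM in the DKO libraries, against 140.10, 140.57 and 133.36 FPKM in the LKO libraries. The groups did not overlap, with DKO replicate 2 lowest and LKO replicate 3 nearest to the DKO libraries. The log2 fold change was -0.19 ± 0.05 (SE), with an edgeR adjusted p of 0.0177. This was the steadiest of the calls, held in 17 of 19 alternatives and lost without DKO 2 (adjusted p 0.117) or without LKO 2 (0.0760).

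The c subunit gene Atp5g1 had 67.26, 60.77 and 61.46 FPKM in the DKO libraries, against 70.00, 76.56 and 70.63 FPKM in the LKO libraries. Its groups did not overlap, and its log2 fold change of -0.19 had an edgeR adjusted p of 0.0569, and it passed in 6 of 19 alternatives. Atp5g2 and Atp5g3, the other c subunit genes, had log2 fold changes of -0.10 and -0.08. Atp5b, which carries the catalytic nucleotide sites, had 231.98, 223.11 and 227.22 FPKM in the DKO libraries, against 250.26, 248.17 and 242.54 FPKM in the LKO libraries. The 3 libraries of each group lay close together with a gap between the groups, at a log2 fold change of -0.11 and an edgeR adjusted p of 0.0853. Its partner in the head, the alpha subunit Atp5a1, had 189 ± 2.24 FPKM in DKO and 201 ± 3.72 FPKM in LKO libraries, with no overlap, a log2 fold change of -0.08 and an edgeR adjusted p of 0.209. Atp5c1, the gamma subunit of the rotating shaft, and Atp5pb, the b subunit of the peripheral stalk, were the other genes of complex V with no overlap, at -0.11 and -0.10.

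**Figure D4:**
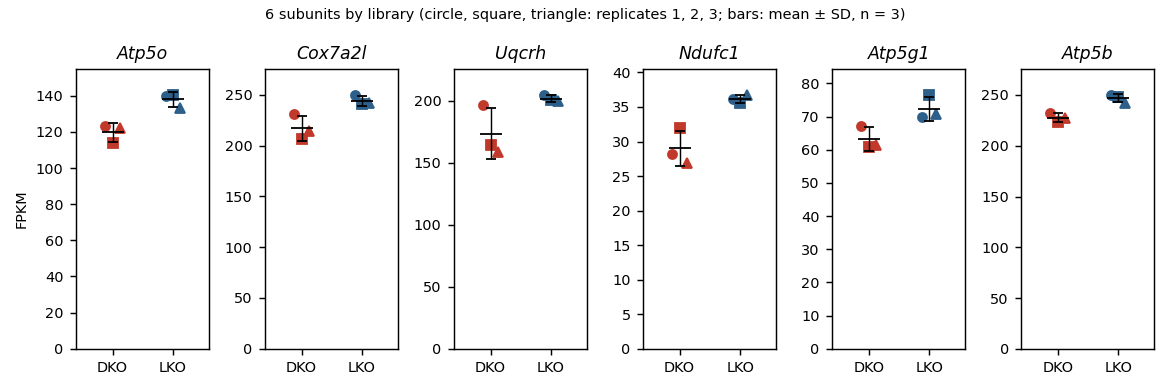
FPKM by library of Atp5o, Cox7a2l, Uqcrh, Ndufc1, Atp5g1 and Atp5b, with DKO (red) left of LKO (blue), replicates 1 to 3 as circle, square and triangle, and bars for mean ± SD (n = 3). In all 6 genes every DKO point lies below every LKO point, and only the first 3 had an edgeR adjusted p under 0.05.

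Summed by complex, the same pattern showed in the levels. The 17 genes of complex V summed to 2359, 2171 and 2177 FPKM in the DKO libraries, against 2376, 2383 and 2376 FPKM in the LKO libraries, or 94.0% of the LKO mean. It was the only complex whose sums did not overlap between genotypes, although DKO replicate 1 stood at 99.2% of the LKO mean. Complex I summed to 1972 ± 50.2 FPKM in DKO and 2000 ± 38.6 FPKM in LKO libraries, complex II to 316.6 ± 6.68 FPKM in DKO and 316.5 ± 2.40 FPKM in LKO. Complex III summed to 717 ± 45.4 FPKM in DKO and 743 ± 10.01 FPKM in LKO, and complex IV to 2243 ± 119 FPKM in DKO and 2324 ± 11.1 FPKM in LKO. The SD of the sums was larger among the DKO libraries than among the LKO libraries in all 5 complexes.

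**Figure D5:**
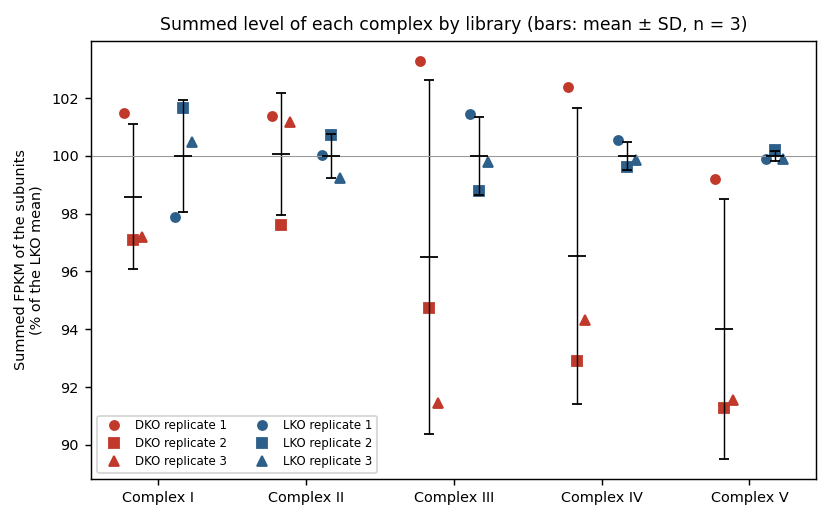
Summed FPKM of the subunits of each complex in each library, as a percentage of the LKO mean, with DKO (red) left of LKO (blue), replicates 1 to 3 as circle, square and triangle, and bars for mean ± SD (n = 3). DKO replicate 1 lies between 99.2% and 103% in all 5 complexes, and DKO replicates 2 and 3 lie at 91.3% and 91.6% in complex V.

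The genes that build and supply the complexes were counted from lists of textbook members. Of 47 tested assembly factors, the proteins that put the complexes together, 0 passed by edgeR, and DESeq2 and limma also called 0. At an unadjusted p under 0.05 by edgeR, 2 were lower and 1 higher (12.7% lower and 13.1% higher over all tested genes). Their median log2 fold change was -0.03. Of 18 tested genes of electron carriers, ubiquinone synthesis and exchange across the inner membrane, 2 fell and 1 rose, with a median of -0.06. Over all tested genes the same test called 6.88% lower and 7.42% higher.

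Both called-lower genes were ADP/ATP translocases, which bring ADP in for the ATP synthase and carry ATP out. Slc25a5 had 251.68, 247.06 and 243.80 FPKM in the DKO libraries, against 314.24, 278.76 and 291.71 FPKM in the LKO libraries. Every DKO library was below every LKO library, the DKO libraries lying closer together, with a log2 fold change of -0.24 ± 0.05 (SE) and an edgeR adjusted p of 0.000753. It passed in all 19 alternatives, the largest adjusted p being 0.0399. Slc25a4, the second translocase, had 107 ± 2.66 FPKM in DKO and 120 ± 1.93 FPKM in LKO libraries, with a log2 fold change of -0.16 and an edgeR adjusted p of 0.0308. It was lost in 7 of 19 alternatives: with DESeq2, with a replicate block and without any 1 of DKO 2, DKO 3, LKO 1, LKO 2 or LKO 3, with adjusted p up to 0.134. Coq5, a methyltransferase of ubiquinone synthesis, was the gene that rose, with 15.2 ± 1.19 FPKM in DKO and 12.5 ± 0.920 FPKM in LKO libraries, a log2 fold change of 0.29 and an edgeR adjusted p of 0.0162. It was lost in 9 of 19 alternatives, among them DESeq2, limma on log2(FPKM + 1) and leaving out DKO 2, LKO 2 or LKO 3, with adjusted p up to 0.115.

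Of 18 tested regulators of respiratory genes 0 passed by edgeR, with 6 lower and 1 higher at an unadjusted p under 0.05 (12.7% lower and 13.1% higher over all tested genes), and DESeq2 and limma also called 0. The median was -0.11. Gabpb2, a partner of GABP alpha picked out for its value, lay nearest to the threshold, with 8.83 ± 0.613 FPKM in DKO and 9.997 ± 0.107 FPKM in LKO libraries and an edgeR adjusted p of 0.0501, and it passed in 5 of 19 alternatives. Among those whose motifs were searched, Nrf1 had 8.21 ± 0.361 FPKM in DKO and 7.85 ± 0.25 FPKM in LKO libraries, Gabpa 9.90 ± 0.277 FPKM in DKO and 11.1 ± 0.810 FPKM in LKO, and Yy1 38.7 ± 0.888 FPKM in DKO and 39.0 ± 1.11 FPKM in LKO. Esrra, which encodes the ERR alpha receptor, had 28.8 ± 0.990 FPKM in DKO and 31.9 ± 1.12 FPKM in LKO, with an edgeR adjusted p of 0.118.

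Of 25 genes of mitochondrial import, membrane and matrix proteins, 2 fell and 0 rose (6.88% lower and 7.42% higher over all tested genes). The median was -0.04. The 2 that fell encode the matrix chaperonin that folds imported proteins. Hspd1 had 35.2 ± 0.704 FPKM in DKO and 43.4 ± 3.97 FPKM in LKO libraries, a log2 fold change of -0.29 and an edgeR adjusted p of 0.00182. Hspe1, its co-chaperonin, had 44.4 ± 3.42 FPKM in DKO and 55.8 ± 4.77 FPKM in LKO libraries, a log2 fold change of -0.32 and an edgeR adjusted p of 0.00464. Each passed in 18 of 19 alternatives, and limma without a filter was the exception for both.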

How the data were processed

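RNA was sequenced from 3 DKO and 3 LKO libraries, grouped by their labels. Per the file headers, the deposited tables give an expected count (the authors' estimate of reads per gene), an FPKM value (the authors' scaling to transcript length and depth) and a transcript length for each NCBI gene number. The submitters' processing notes name Bowtie 0.12.2 and mm8. Not given in the sources used here: counter, strand setting; sense and antisense reads cannot be told apart. Expected counts were whole (within 0.005) for 78 subunits and fractional for Ndufa7, Ndufs1, Cox7c and Atp5j2, which may share reads with copies. Genes absent from a library's table counted as 0. Of 16871 gene numbers, 16832 matched a RefSeq GRCm38 symbol. Promoter windows came from RefSeq GRCm38.p6, which is not the build of the files.

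Rounded expected counts went into the quasi-likelihood test of edgeR 4.0.16, in R 4.3.3 (TMM and filterByExpr, factors 0.993 to 1.01, biological coefficient of variation 0.0413), adjusted over 11809 genes by Benjamini-Hochberg with a threshold of 0.05. FPKM means ± SD are over 3 libraries. Isoform shares were tested by exact permutation. The fit was tested on simulated data. Replicates differed beyond sampling noise (chi-square per degree of freedom at least 1.68 over genes with at least 20 reads), so each library counted as 1 sample. Alternatives were DESeq2 1.42.0, other scalings, no count filter, a replicate block, leaving out each library, and limma 3.58.1 on log2(FPKM + 1) for genes with at least 1 FPKM in 3 libraries, with pseudocounts of 0.1 and 5, no filter, a minimum of 5 FPKM or quantile normalization; these fold changes, on the scale log2(FPKM + pseudocount), understate changes at low levels. Removal of a transcript length trend (loess, span 0.5) was added after seeing the data.

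By the rule, genes named were Aldh2, subunits that passed, the highest and lowest of each complex, isoform pairs, subunits with redox or nucleotide sites, and up to 3 passing genes per list; 1 gene that the rule takes is not reported individually here. Others, such as Ndufc1, Ndufa2 and the regulators, were named after their values were seen. Atp5g1 and Cox4i1 were named as genes of the isoform pairs, but were described further after their values were seen. The members and the lists were chosen with earlier results of these data known, so they are no independent support.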

Additional observations from a re-analysis of the deposited data

How the results depend on the processing

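Over the 19 alternatives 0 subunits were called higher, and the median log2 fold change of the subunits stayed between -0.05 and -0.01; no called value reversed. The number of all genes called was 1689 with edgeR, 1141 with DESeq2 and 1130 with limma on log2(FPKM + 1). Within limma it was 1119 with a pseudocount of 0.1 and 807 without a filter. It was 1076 with a minimum of 5 FPKM and 1108 after quantile normalization. Between edgeR and limma on log2(FPKM + 1) the tool, the unit and the genes tested (11809 and 10701) changed together. Their parts in the drop were not tested. The number of subunits called lower was 3; it was 6 with upper-quartile factors (Atp5b, Atp5g1, Atp5o, Cox7a2l, Ndufc1 and Uqcrh), and leaving out 1 library at a time gave 0 (without LKO 2) to 5 (without DKO 1), with 1 each without DKO 2 and without DKO 3. The cause was not tested, except that leaving out a library removes a sample. In all, 7 subunits were called in at least 1 setting. Upper-quartile factors moved the median of all genes to -0.02. Libraries with the same replicate number showed no shared deviation: their deviations correlated at -0.135 to -0.0103 over 8803 genes. With 3 libraries per group this cannot exclude that the libraries were paired. The fit with the replicate block called 1553 genes, 3 subunits lower and 0 higher. Leaving out 1 library at a time, the complex V sum was 91.4% to 95.4% of the LKO mean. The DKO minus LKO difference in the share of Cox7a1, 0.0861 percentage points, ran between -0.640 and 0.656, that of Cox6a2 and Ndufa4l2 also changed sign, and that of Atp5g1, -0.925, ran between -1.22 and -0.466. With 3 libraries per group, differences smaller than the intervals given were not detectable.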

Other observations

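The subunit genes are scattered over 19 chromosomes, and 3 of the tested ones, Cox6a1, Atp5k and Atp5j2, share chromosome 5 with the deleted Aldh2. In the order of tested genes, 41 lie between Aldh2 and Cox6a1, 122 between Aldh2 and Atp5k and 239 between Aldh2 and Atp5j2, of 751 tested on the chromosome. None of the 3 passed the edgeR test, and their log2 fold changes were 0.08, -0.13 and -0.01.

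The subunits were measured more evenly than most genes in LKO libraries. Their median coefficient of variation between libraries was 5.58% in DKO and 4.65% in LKO, and over all tested genes it was 5.95% in DKO and 6.71% in LKO. Their summed FPKM was 7856, 7283 and 7313 in DKO replicates 1, 2 and 3, and 7740, 7783 and 7761 in LKO replicates 1, 2 and 3.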
